A study of Mus musculus with 2 samples.

Results

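Genes of lysosomal enzymes, of the proteins that hand lipids to those enzymes, and of lysosomal membrane and sorting proteins were examined in double-positive (DP) thymocytes with and without Bcl11b. The 33 genes are a list of names matched to the probes of the array. They comprise 10 proteases, 10 glycosidases and sulfatases, 7 genes of lipid handling and 6 genes of membrane proteins, sorting and progranulin. All 33 had a probe among the 27595 named genes of the array, and 31 of them were among the 14928 genes bright enough to test. Galc and Arsb were not.

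RNA of DP thymocytes was hybridised to 2 mouse 2-colour oligonucleotide arrays, which the labels call biological replicates 1 and 2. Bcl11bF/FCD4Cre/Tcra-/- cells, called deficient below, carried Cy5 on both arrays. These mice have floxed Bcl11b alleles, a Cre expressed from Cd4 control sequences, and no Tcra. TCRa-/- cells, called control, carried Cy3 on both arrays. Both groups therefore lack Tcra and hold thymocytes that have not passed selection. Neither Cre nor a floxed allele appears in the label of the control cells, so what Cre itself does and what the loss of Bcl11b does cannot be told apart. No array had the dyes exchanged, so a dye effect cannot be told apart from genotype either. The labels give no age, no number of mice per sample and no account of how DP cells were isolated.

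Lysosomes digest proteins, glycans and lipids with hydrolases that work at acid pH. Most of these enzymes reach the lysosome by a mannose 6-phosphate tag, and many glycolipid hydrolases need small activator proteins that lift the lipid out of its membrane. In the thymus the same machinery has a further role, since DP thymocytes display lipids on CD1d to developing natural killer T cells, and saposins, made from the Psap product, load lipids onto CD1d. Cathepsins L and S process the invariant chain of MHC class II, cathepsin L mainly in cortical thymic epithelium and cathepsin S mainly in dendritic cells and other antigen-presenting cells.

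Many lysosomal genes share a promoter element, called CLEAR, that is bound by the transcription factor TFEB and its relatives. The word CACGTG, the longer word CACGTGAC that contains it, and the full palindrome of CACGTGAC preceded by GT, which contains both, were searched for on both strands. The search covered the RefSeq promoter windows of GRCm38.p6, each of 300 bases, 250 before and 50 after an annotated start. Of the 33 genes, 29 had a window in the table, all but Asah1, Ctsb, Ctsh and Npc1. The word CACGTGAC occurred in a window of 9 of the 29 genes (31.0%), namely Arsa, Ctsa, Ctsd, Gla, Glb1, Lamp1, Lgmn, Naglu and Sgsh. It occurred in 2.25% of all 32851 windows, or in those of 2.55% of 27025 genes. CACGTG occurred in 10 of the 29 genes, the 9 above and Ctsl, and in 7.15% of all windows, or those of 8.09% of genes. The full palindrome occurred in none of the 29 and in 0.326% of all windows, or those of 0.37% of genes. The 100 bases before the start are shown for the 2 genes with this word and the lowest ratios, Ctsd and Ctsa, and for the 2 with the highest, Sgsh and Lgmn, with the word in capitals on either strand. Ctsa and Lgmn each have another annotated start in the table, whose window lacks the word.
Ctsd (chr7:142387828-142387927, minus strand): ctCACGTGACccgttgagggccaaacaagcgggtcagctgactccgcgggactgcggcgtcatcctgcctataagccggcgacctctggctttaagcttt
Ctsa (chr2:164833673-164833772, plus strand): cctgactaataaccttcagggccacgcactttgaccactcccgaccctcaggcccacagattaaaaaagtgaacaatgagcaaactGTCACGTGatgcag
Sgsh (chr11:119355511-119355610, minus strand): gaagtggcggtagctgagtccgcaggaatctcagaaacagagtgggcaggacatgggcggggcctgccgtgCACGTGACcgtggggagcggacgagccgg
Lgmn (chr12:102439093-102439192, minus strand): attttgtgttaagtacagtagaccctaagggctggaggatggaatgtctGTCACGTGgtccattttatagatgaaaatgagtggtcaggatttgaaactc
The word shown began 98 bases before the start in Ctsd, 14 in Ctsa, 29 in Sgsh and 51 in Lgmn. Outside the stretches shown, a match also began 245 bases before an annotated start of Ctsd and 5 bases after that of Ctsa. Of the 9 genes with it, 4 (Gla, Lgmn, Naglu and Sgsh) had higher signals in deficient cells on both arrays. The other 5 (Arsa, Ctsa, Ctsd, Glb1 and Lamp1) had lower ones. Over all genes tested, 36.4% were higher in deficient cells on both arrays and 38.5% lower. With median centring of the ratios, the means of Arsa and Lamp1 were above 0 (0.15 and 0.18). In that setting Ctsa (-0.42 and 0.15) and Glb1 (-0.24 and 0.21) had opposite signs on the arrays. Ctsd alone of the 5 stayed below 0 on both (-0.18 and -0.20). A match to these letters is a description and not evidence of binding.

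Between 50.5% and 56.5% of the spots were well above background in each channel. Bcl11b itself read -1.40 and -0.28 (log2 ratio of deficient over control) on replicates 1 and 2 by its brighter probe and -1.37 and -2.16 by the other. Whether either probe lies in the deleted exons was not examined. All 10 DP markers checked, among them Cd4, Cd8a and Rag1, were well above background in both channels of both arrays. Markers of other cell types were measurable too. Of 17 macrophage markers 15 were bright enough to test, and so were 9 of 10 thymic epithelial, 6 of 10 granulocyte and 5 of 7 erythroid markers. In bulk RNA such as this, fewer cells of a type and less RNA per cell cannot be told apart.

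In the comparison of deficient with control cells, the lysosomal genes spread to both sides of 0 (plot of the ratios of all 31 genes). The ratio was above 0 on both arrays for 13 genes and below 0 on both for 13, while 5 had opposite signs. Over all genes tested, 36.4% were above 0 on both arrays, 38.5% below 0 on both and 25.1% of opposite sign. The median log2 ratio was 0.01 over the 31 genes and -0.004 over all genes tested. Median centring in place of loess moved the median of all genes to 0.13. The 31 genes then had a median of 0.22, and 23 were above 0 on both arrays. The share of all genes above 0 on both arrays was not counted in that setting. By mean ratio, 21 of the 31 lay above the median of all genes there, against 17 with loess. None of the 31 passed limma's moderated test at a Benjamini-Hochberg adjusted p of 0.05 over all genes, and neither did any other gene tested (0%). The smallest adjusted p among them was 0.0739, and the smallest over all genes was 0.0658. At an unadjusted p under 0.05, 5 of the 31 were higher (Ctsz, Grn, Lgmn, Manba and Sgsh) and 5 lower (Ctsa, Ctsd, Ctsl, Lipa and Scarb2). The shares over all genes were 15.1% higher and 14.1% lower, close to those of the 31. Only Sgsh and Grn were at least 1.5-fold higher on both arrays, and none was at least 1.5-fold lower on both, against 2.47% and 1.21% of all genes.

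**Figure D1:**
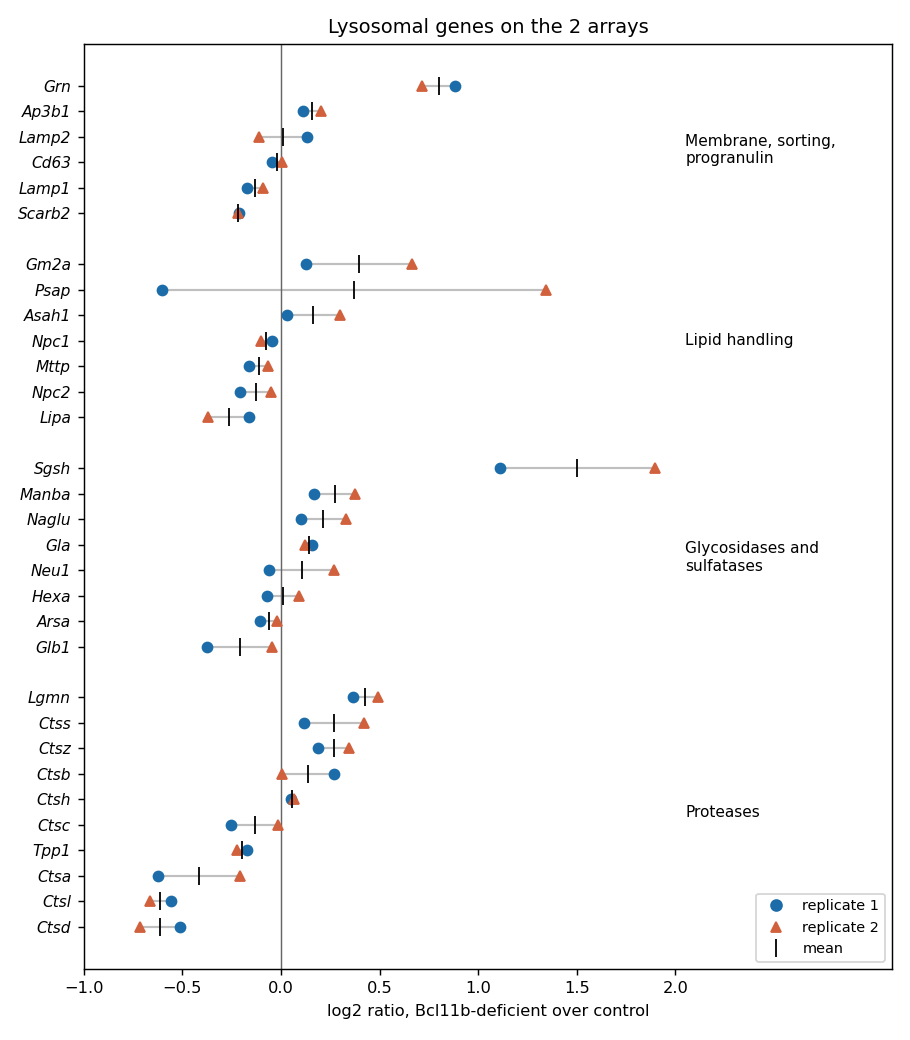
Log2 ratio of deficient over control for the 31 measured lysosomal genes, grouped by role (x axis: log2 ratio; circle, replicate 1; triangle, replicate 2; bar, mean of both arrays). Sgsh lies farthest to the right on both arrays, Ctsd and Ctsl farthest to the left by mean, and Psap spans from -0.60 to 1.34.

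Among the proteases, the aspartic protease gene Ctsd and the cysteine protease gene Ctsl gave the lowest ratios of the 31. For Ctsd the processed signals, in units of scanner intensity, were 10002 and 8182 in deficient cells and 14508 and 13333 in control cells on replicates 1 and 2. Both deficient samples thus lay below both control samples. The log2 ratios were -0.51 and -0.71, with a mean of -0.61 ± 0.09 (SE, limma, n = 2 arrays; adjusted p = 0.0844). This probe lies at chr7:142185447-142185506 in mm8, and another Ctsd probe gave -0.18 and -0.45. Ctsl signals were 21688 and 11933 in deficient and 38468 and 19694 in control cells. The deficient signal was the lower on each array, yet the groups overlapped, because both samples of replicate 1 were brighter than their counterparts of replicate 2. The log2 ratios of Ctsl were -0.56 and -0.66 (mean -0.61 ± 0.08, limma adjusted p = 0.0781), from 1 probe at chr13:64378710-64378769 in mm8. Median centring moved the means to -0.19 for Ctsd and -0.07 for Ctsl, and the processed signals gave -0.62 and -0.77.

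Ctsa encodes the serine carboxypeptidase that also holds beta-galactosidase and the sialidase NEU1 in a stable complex. Its deficient signals were 3574 and 3706 and its control signals 5426 and 4194, with no overlap between groups. The log2 ratios were -0.62 and -0.21 (mean -0.42 ± 0.13, limma adjusted p = 0.157), and a further probe of similar brightness gave -0.34 and -0.04. The mean ratios of its partners in that complex were smaller in size by their brightest probes, with Glb1 at -0.38 and -0.04, and Neu1 at -0.06 and 0.27. The mean of all kept probes was -0.12 and -0.06 for Glb1 and 0.02 and 0.23 for Neu1. Tpp1, a tripeptidyl peptidase, read -0.17 and -0.22 by its brightest probe, and -0.17 and -0.06 as the mean of all its kept probes. Its mean of -0.20 by the brightest probe became 0.22 with median centring. Ctsc, the peptidase that activates granzymes, read -0.25 and -0.01, and its mean of -0.13 became 0.08 in that setting.

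The other 5 proteases read above 0 on both arrays. Legumain, the asparaginyl endopeptidase encoded by Lgmn, had signals of 1122 and 522 in deficient and 863 and 355 in control cells. Here too replicate 1 was brighter in both genotypes, so the groups overlapped although the deficient signal was the higher on each array. Its log2 ratios were 0.36 and 0.49 (mean 0.43 ± 0.08, limma adjusted p = 0.0916). Ctss had signals of 5600 and 3359 in deficient and 4983 and 2422 in control cells, and log2 ratios of 0.12 and 0.42 (mean 0.27 ± 0.11, limma adjusted p = 0.207). Ctsz, a carboxypeptidase gene, read 0.19 and 0.34 by its brighter probe and 0.14 and 0.19 by another. The aminopeptidase gene Ctsh was almost level at 0.05 and 0.06. Ctsb read 0.27 and 0.01 by a bright probe and -0.11 and -0.17 by a dim one. The 2 Ctsb probes thus gave no common direction, and median centring moved its mean from 0.14 to 0.64 (limma adjusted p = 0.0445).

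Of the glycosidases and sulfatases, 8 of 10 were measured, and Sgsh stood apart from the other 7. Sgsh encodes the sulfatase that takes sulfate off the glucosamine of heparan sulfate. Its signals were 1164 and 1298 in deficient and 458 and 211 in control cells, so that both deficient samples lay far above both control samples. The log2 ratios of 1.11 and 1.90 gave a mean of 1.503 ± 0.22 (limma adjusted p = 0.0847), or a 2.83-fold higher level. The processed signals gave a mean of 1.99. The value rests on 1 probe, at chr11:119159732-119159791 in mm8. The second Sgsh probe was not well above background in either channel of either array.

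Naglu, whose enzyme acts on heparan sulfate beside that of Sgsh, read 0.10 and 0.33 (mean 0.21 ± 0.09, limma adjusted p = 0.229). Manba, the beta-mannosidase gene, read 0.17 and 0.37 by its brighter probe and 0.11 and 0.29 by another. Gla encodes the alpha-galactosidase that trims globosides and read 0.16 and 0.12. Hexa, a subunit of beta-hexosaminidase, read -0.07 and 0.09. Arsa, the sulfatase of sulfatide, read -0.10 and -0.02, and its mean of -0.06 became 0.15 with median centring. Apart from Sgsh, the means of the group ran from -0.21 for Glb1 to 0.27 for Manba. Galc, the galactosylceramidase gene, and Arsb, which encodes a sulfatase of dermatan sulfate, had no probe well above background on both arrays in either channel, so no ratio was drawn from them.

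In the lipid group the largest values came from activator proteins, and for Psap the arrays disagreed. Psap encodes prosaposin, the precursor of the saposins. Its signals were 4387 and 5639 in deficient and 6669 and 2155 in control cells on replicates 1 and 2. The deficient sample was thus the lower of the pair on replicate 1 and the higher on replicate 2, with log2 ratios of -0.60 and 1.34 (mean 0.37 ± 0.52, limma adjusted p = 0.659). The 2 probes lie at chr10:59697434-59697493 and chr10:59697101-59697160 in mm8, and the second gave -0.25 and 1.32, so the disagreement was shared by both probes. A gap between arrays at least as large was found in 29 of 14928 genes (0.194%). The control signal was the more variable, with a log2 difference of -1.5 between replicate 2 and replicate 1 against 0.44 in the deficient channel.

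Gm2a, the activator that presents GM2 ganglioside to beta-hexosaminidase, had signals of 589 and 413 in deficient and 541 and 216 in control cells. The log2 ratios were 0.12 and 0.67 (mean 0.40 ± 0.16, limma adjusted p = 0.213), and a dimmer probe gave 0.26 and 0.49. Asah1, the acid ceramidase gene, read 0.03 and 0.30. Lipa, the acid lipase gene, had signals of 3567 and 2559 in deficient and 3810 and 3384 in control cells, and ratios of -0.16 and -0.37 (mean -0.27 ± 0.09, limma adjusted p = 0.169). A dimmer Lipa probe gave -0.17 and -0.21, while median centring turned the mean to 0.03. The cholesterol exporter genes Npc1 (-0.05 and -0.10) and Npc2 (-0.21 and -0.05) were close to 0, and both means turned positive with median centring (0.06 and 0.18). Mttp, the lipid transfer gene of the endoplasmic reticulum that acts on CD1d, was dim and read -0.16 and -0.06.

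**Figure D2:**
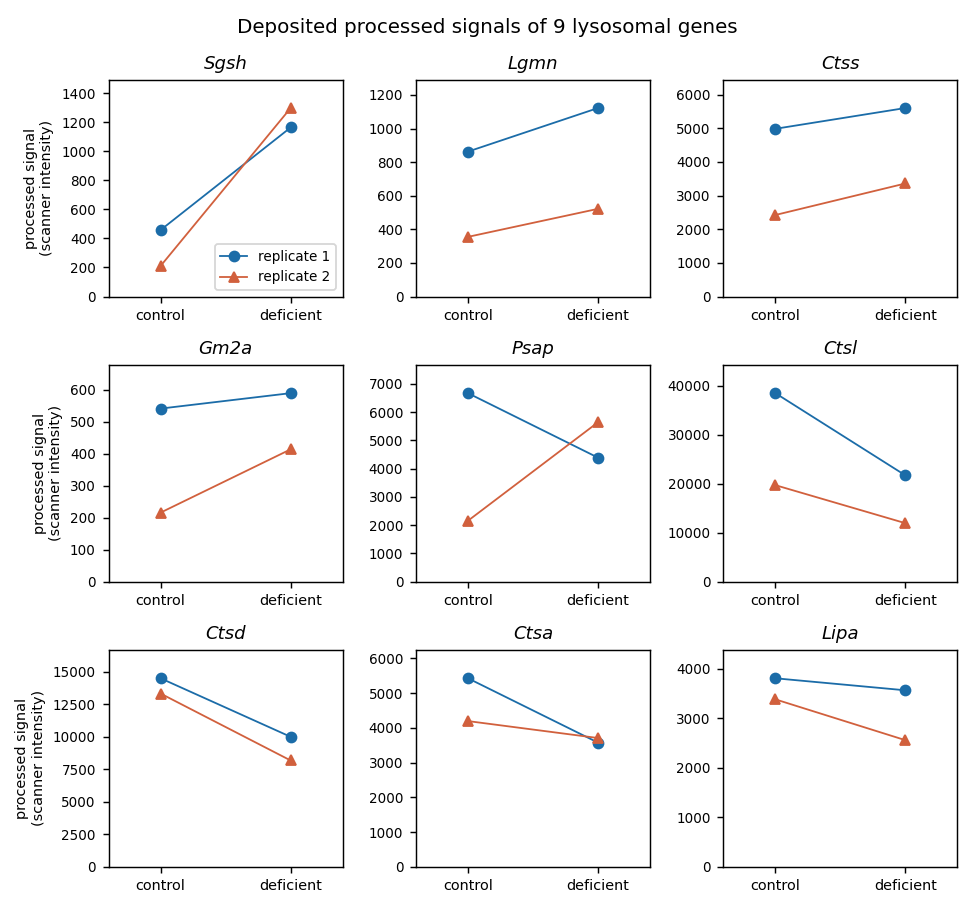
Processed signals (y axis: scanner intensity, from 0) of 9 lysosomal genes in control and deficient cells, with a line joining the 2 samples of an array (blue circles, replicate 1; orange triangles, replicate 2). The line of Psap slopes down on replicate 1 and up on replicate 2, those of Sgsh, Lgmn, Ctss and Gm2a slope up on both arrays and those of Ctsl, Ctsd, Ctsa and Lipa slope down on both.

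Apart from Grn, the means of the group of membrane and sorting genes ran from -0.22 for Scarb2 to 0.16 for Ap3b1. Scarb2, which encodes the lysosomal membrane protein that carries glucocerebrosidase, read -0.21 and -0.22 by its brighter probe (mean -0.22 ± 0.07, limma adjusted p = 0.161) and -0.27 and -0.32 by another, although median centring turned the mean to 0.04. Lamp1 read -0.17 and -0.09, or a mean of 0.18 with median centring. The 2 measured probes of Lamp2 went apart, at 0.13 and -0.11 by the brighter and -0.22 and -0.12 by the other. The tetraspanin gene Cd63 read -0.05 and 0.00. Ap3b1, a subunit of the AP-3 adaptor that sends membrane proteins to lysosomes, read 0.11 and 0.20.

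Grn, the progranulin gene, was the other gene at least 1.5-fold higher on both arrays, at 0.88 and 0.72 (mean 0.80 ± 0.08, limma adjusted p = 0.0739). Its signals of 70697 and 56079 in deficient and 53870 and 44199 in control cells did not overlap between groups. This probe belongs to the 77 brightest genes, those with a mean log2 intensity of 17 or more, whose median ratios were 1.06 and 1.07 on the 2 arrays. Centred on the running median of genes of like intensity, Grn read 0.11, and the processed signals gave 0.37. A dimmer Grn probe read 0.14 and 0.35.

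Separate-channel limma, which tests the channels of both arrays as 4 samples, called Grn and Sgsh higher (adjusted p = 0.0235 and 0.0341) and Ctsd lower (adjusted p = 0.0403). Over all genes that method called 4.75% higher and 3.83% lower, or 8.58% in all. Median centring called Grn, Sgsh and Ctsb higher (limma adjusted p = 0.0289, 0.0434 and 0.0445), against 5.96% of all genes called higher and 0.703% called lower, or 6.66% in all. The processed signals called 0.489% of all genes higher and 0.368% lower (0.857% in all), and none of the 31. The value table of the series called 0.141% higher and 0.0335% lower (0.174% in all), and none of the 31. These settings share the same 2 arrays. By the 4 processed signals, both deficient samples lay above both control samples in 5 of the 31 (Ap3b1, Gla, Grn, Manba and Sgsh) and below both in 8 (Ctsa, Ctsd, Glb1, Mttp, Npc1, Npc2, Scarb2 and Tpp1). Over all genes 25.3% lay above and 32.1% below in this way. Of the 31 genes, 14 had more than 1 measured probe, and 12 of the 15 further probes matched the sign of the brightest probe's mean. The 3 that did not belong to Ctsb, Glb1 and Lamp2.

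**Figure D3:**
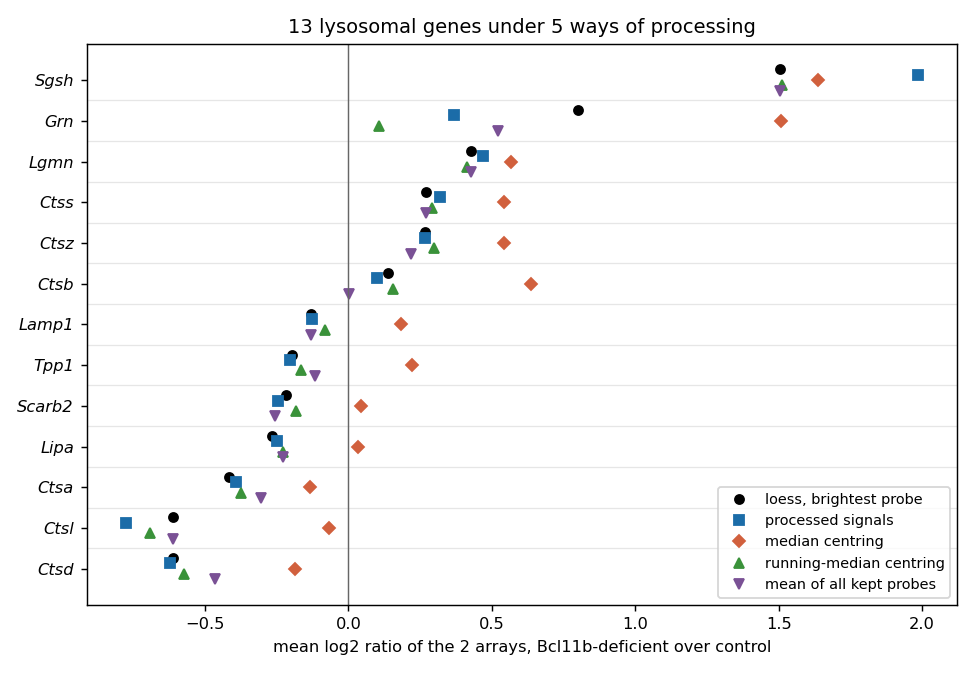
Mean log2 ratio (x axis) of 13 lysosomal genes under 5 ways of processing the same 2 arrays. Median centring (orange diamonds) lies to the right of loess for every gene drawn and turns Lamp1, Tpp1, Scarb2 and Lipa from below to above 0. The other genes drawn keep the same side throughout, and Grn ranges from 0.11 to 1.51. For genes with 1 kept probe, such as Sgsh and Lgmn, the mean of all kept probes only repeats the loess value.

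Several of these genes varied more between the replicates of a genotype than between genotypes. On the log2 channel scale, the signals of Cd63, Ctsh, Ctsl, Ctss and Lgmn were lower by more than 0.5 on replicate 2 than on replicate 1 in both genotypes. These 5 made up 16.1% of the 31 measured genes, against 1.09% of all genes. The threshold was chosen after the values were seen. Lgmn differed by -0.87 in deficient and -0.9985 in control cells, Ctss by -0.69 and -0.99, Ctsl by -0.82 and -0.71, Ctsh by -0.76 and -0.77, and Cd63 by -0.71 and -0.76. For Ctsh and Cd63 the ratio between genotypes was near 0 on both arrays in spite of that difference. In all genes tested, the central 90% of such differences ran from -0.32 to 0.33 in deficient and from -0.44 to 0.43 in control cells.

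Markers of other cell types differed between the replicates in the same way. Of 15 macrophage markers, 7 were lower by more than 0.5 in both genotypes on replicate 2, and so were 4 of 8 dendritic, 4 of 9 thymic epithelial, 4 of 9 stromal, 2 of 9 natural killer (NK) cell and 1 of 6 B cell markers. None of 10 DP markers was. The complement gene C1qa, a macrophage marker, differed by -0.84 in both genotypes, and Prss16, a protease gene of thymic epithelium, by -1.89 and -2.68. Granulocyte and erythroid markers instead differed mainly in the control channel by median, at -2.03 and -1.43 there and 0.36 and 0.87 in the deficient channel. The erythroid markers Slc4a1 (1.04 in deficient and -0.36 in control cells) and Epb42 (0.11 and 0.21) departed from this. Psap also differed mainly in the control channel, and so did the macrophage marker Lyz2 (0.16 in deficient and -1.28 in control cells). S100a9 differed by 0.54 in deficient and -2.74 in control cells, and Hbb-bt by 0.49 and -2.72. The part of such cells in the values of the lysosomal genes was not tested.

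**Figure D4:**
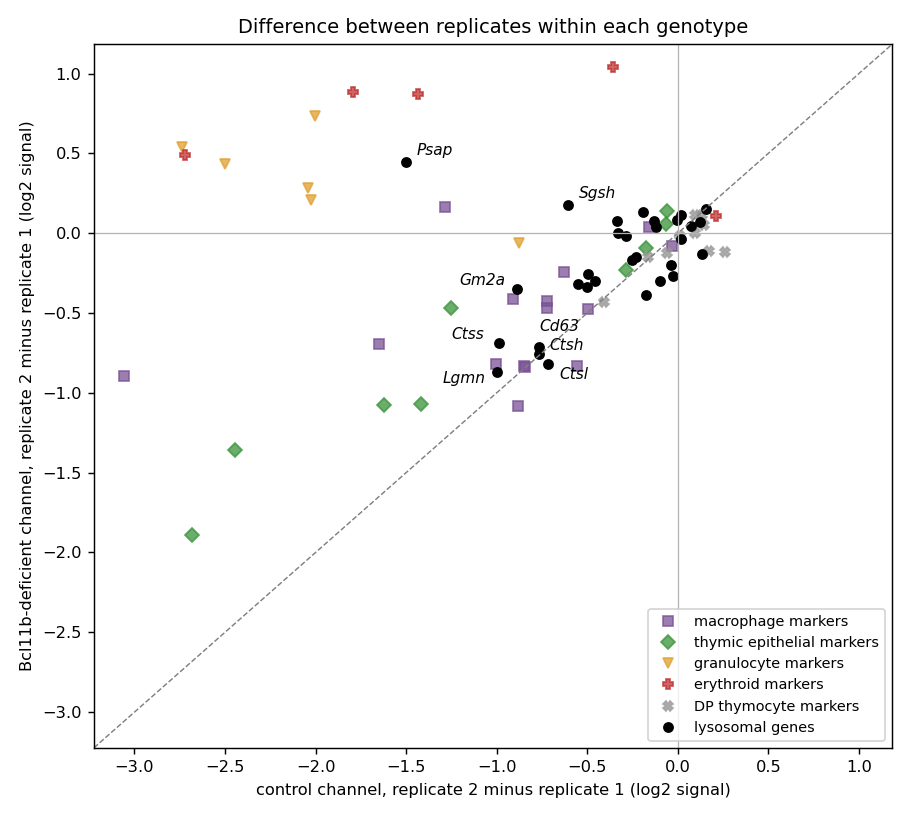
Difference in log2 signal between replicate 2 and replicate 1 in the control channel (x axis) and in the deficient channel (y axis) for lysosomal genes (black) and for markers of 5 cell types (colours). On the dashed line both genotypes differ equally. Lgmn, Ctss, Ctsl, Ctsh and Cd63 lie at the lower left, as do several macrophage and several thymic epithelial markers. Psap lies at the upper left, as do most granulocyte and erythroid markers and the macrophage marker Lyz2. DP markers lie near 0. Stromal, dendritic, NK and B cell markers are not drawn.

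Between genotypes, 10 of the 15 macrophage markers were above 0 on both arrays and 3 below, with a median of 0.31. The summed processed signal of the list was 38060 and 34923 in deficient and 35317 and 13547 in control cells, and Mertk and Msr1 were not bright enough to test. The lysozyme gene Lyz2 made up most of that sum. Without it the sums were 13006 and 6890 in deficient and 12110 and 4791 in control cells. Stromal and endothelial markers had a median of 0.71, with 8 of 9 above 0 on both arrays, and summed signals of 7106 and 3964 in deficient and 4096 and 1151 in control cells. NK cell markers had a median of 0.46, with 7 of 9 above 0 on both arrays. Their summed signals were 12631 and 12029 in deficient and 6935 and 5770 in control cells. Whether these transcripts came from NK cells or from the thymocytes themselves was not tested. DP markers had a median of -0.24, with 8 of 10 below 0 on both arrays. With median centring their median was 0.08, while that of all genes was 0.13. The DP median was -0.30 with processed signals and -0.41 with running-median centring, with 9 and 10 of the 10 below 0 on both arrays. Dendritic and B cell markers had medians of 0.04 and -0.14, with 4 of 8 and 1 of 6 above 0 on both arrays and 2 of each below. Thymic epithelial markers had a median of -0.09, with 1 of 9 above 0 on both arrays and 3 below, and summed signals of 9441 and 3608 in deficient and 12890 and 2771 in control cells. Foxn1, which defines that lineage, was not bright enough to test. All 6 granulocyte markers and 4 of 5 erythroid markers had opposite signs on the arrays, as Psap did. Summed granulocyte signals were 6970 and 9449 in deficient and 38556 and 5432 in control cells, and summed erythroid signals 71880 and 108195 and 127663 and 20269. The granulocyte markers Elane, Ly6g, Retnlg and Csf3r were not measured or not bright enough.

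The rest of the lysosomal pathway gave a similar picture. Of 103 further listed genes, 92 were bright enough to test, with a median of -0.01. Of these, 30 were above 0 on both arrays and 33 below, and none passed limma's test or was at least 1.5-fold changed in one direction on both arrays. At an unadjusted limma p under 0.05, 10 of the 92 were higher and 14 lower, against 15.1% and 14.1% of all genes. Over all genes, 36.4% were above 0 on both arrays and 38.5% below. Further hydrolases had a median of -0.03 over 24 genes, from -0.67 for the acid phosphatase gene Acp5 to 0.47 for the beta-glucuronidase gene Gusb. Subunits of the proton pump that acidifies lysosomes had a median of -0.08 over 17 genes, with 3 above 0 on both arrays and 9 below, and Tcirg1 highest at 0.51. Other membrane proteins had a median of 0.08 over 16 genes. Genes of mannose 6-phosphate sorting, adaptors and tethering had a median of -0.01 over 22 genes, from -0.41 for Ap3s1 to 0.28 for Sort1.

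Among regulators, Tfeb, Tfe3 and Tfec were not bright enough to test, and Mitf read -0.17 and -0.31. Rraga, which encodes a GTPase that recruits mTORC1 to lysosomes, had opposite signs on the arrays, at -1.06 and 1.83. Of the genes of glycolipid display and synthesis, 5 of 10 were measured. The glycolipid-presenting molecule gene Cd1d1 read -0.31 and -0.33 (mean -0.32 ± 0.07, limma adjusted p = 0.107). St3gal5, the synthase of GM3 ganglioside, read 0.40 and 0.92. Genes named here at the ends of a range, and Rraga, Cd1d1, St3gal5, C1qa, Prss16, S100a9 and Hbb-bt, were picked out after their values were seen. So were Slc4a1, Epb42 and Lyz2.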

How the data were processed

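The authors read both arrays with Agilent Feature Extraction 9.5.3.1, per the submitters' processing notes and the file headers. The deposited mean and local background signals are uncorrected intensity values, per the file headers. Processed signals, as deposited, are intensity values after Feature Extraction's background subtraction, detrending, dye normalisation and replacement of very dim readings. The deposited value table holds the log10 ratio of processed Cy5 over Cy3, since it equals the log ratio column of the array files to within 0.005. Probe positions are those of mm8, per the file headers. Their place within transcripts was not examined.

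Signals were corrected by normexp with an offset of 50 and normalised by loess within arrays in R 4.3.3 with limma 3.58.1. Controls had weight 0, and 108 and 116 spots flagged as outliers were left out. Median raw signals were 1158 and 1251 in the deficient and 842 and 848 in the control channel, against negative controls of 923 and 1036, and 696 and 732. The offset pulls ratios of dim genes toward 0. Of 41174 probes, 21546 passed a filter (well above background on both arrays in at least 1 channel). They were named through the RefSeq table (GRCm38.p6) by accession (24490 probes), symbol (6234) or synonym (2391), and 8059 kept the array's name. The brightest kept probe stood for a gene. Limma's moderated test set the mean ratio against 0 (1 residual degree of freedom, 2.51 prior degrees of freedom), with Benjamini-Hochberg adjustment over 14928 genes. The procedure was also checked on simulated data, from which no reported value comes. Nothing in the labels says how the biological replicates were obtained, and having only 2 arrays limits all precision here. Channel differences between replicates used limma's Aquantile scaling. The alternatives were median centring, processed signals, the value table, no filter, a filter on both channels, the mean of all kept probes, separate-channel limma with statmod 1.5.0, leaving out each array and, chosen after seeing the data, centring on a running median over 501 genes.

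The rule for naming was to name every gene of the set, with values per array where measured. Of other pathway genes, those at least 1.5-fold changed in one direction on both arrays were to be named, and there were none. The members and lists were chosen with earlier results of these data known.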

Additional observations from a re-analysis of the deposited data

How the results depend on the processing

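Of the 31 measured genes, 0 were called in the main setting, 3 with median centring and 3 by separate-channel limma. Over all genes those settings called 0%, 6.66% and 8.58%. None of the 31 was called with processed signals, the value table, no filter on dim probes or a filter on both channels. The same held for the mean of all kept probes and for running-median centring. At an unadjusted p under 0.05, limma gave 10 of the 31 in the main setting, against 15.1% of all genes higher and 14.1% lower. The median of 0.01 became 0.22 with median centring, and it ranged from -0.047 without replicate 2 to 0.0059 without replicate 1. Genes above 0 on both arrays numbered 13, or 23 with median centring, and genes below 0 on both numbered 13, or 3. Over all genes these shares were 36.4% and 38.5% with loess, and were not counted with median centring. By mean ratio, 21 of the 31 lay above the median of all genes with median centring, against 17 with loess. The mean changed sign with median centring for 9 genes, namely Arsa (0.15), Cd63 (0.089), Ctsc (0.081), Lamp1 (0.18), Lipa (0.033), Npc1 (0.057), Npc2 (0.18), Scarb2 (0.043) and Tpp1 (0.22). Median centring makes no correction by intensity and moved the median of all genes from -0.004 to 0.13, and 4 of the 9 lay above that shifted median. Hexa turned to -0.020 with processed signals (-0.02036) and with the value table (-0.02026), and Lamp2 to -0.078 with the mean of all kept probes. With either array left out, the ratio ranged from -0.046 to 0.0040 for Cd63, from -0.071 to 0.094 for Hexa, from -0.11 to 0.13 for Lamp2, from -0.058 to 0.27 for Neu1 and from -0.60 to 1.34 for Psap. Each ratio pairs the 2 samples of an array, so the main test is itself paired by array. With 1 array left out there is no test, since no residual degree of freedom remains.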
